A study of Mus musculus with 4 samples.

Results

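The genes described here are 10 targets of NFkB: NFKBIA, NFKBIE, TNFAIP3 and BCL3, whose products act back on NFkB signalling, CXCL8, CXCL1, CCL2, IL6 and TNF, which encode secreted cytokines, and ICAM1, which encodes an adhesion molecule. Their peaks were all those in the deposited ATAC-seq list that overlapped the 10 kb either side of the GRCh38 start of each gene, and 19 of the 48751 peaks of the list did so. Of these, 11 lay at the 4 feedback genes, 6 at the 5 cytokine genes and 2 at ICAM1. The choice of peaks used position only, not fold or width.

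NFkB is a family of dimeric transcription factors that inhibitor proteins hold in the cytoplasm of resting cells. TNF-α leads to the destruction of these inhibitors, and NFkB then enters the nucleus and binds the promoters and enhancers of its targets. Among the first of these targets are genes for the inhibitors and for enzymes that dampen the signal, which gives the pathway its negative feedback, while the cytokine and adhesion genes carry the inflammatory response to other cells.

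ATAC-seq, in which the Tn5 transposase cuts and tags accessible DNA, was done on HEK293 cells, an established human line from embryonic kidney. A TRAFTAC is a DNA-RNA hybrid that links a transcription factor to a dCas9 fused to HaloTag7, and of the 4 libraries 2 were made with the TRAFTAC against NFkB and 2 with a scrambled one. All 4 shared the other steps: a 6 h transfection with the plasmid for dCas9-HT7 (1 μg/mL) and 25 nM TRAFTAC, then 19 h with 5 ng/mL TNF-α and 25 μM of the PROTAC HP14, which directs the Halo-tagged protein and what it holds to degradation. Shortly before harvest the cells were also treated with DNase, per the methods. The peaks were called on the 4 libraries merged, with 0 columns of single samples, so the values below describe HEK293 cells under TNF-α with both TRAFTACs pooled. They allow no comparison between the TRAFTACs, no comparison with unstimulated cells and no replicate error. The fusion protein came from a transient transfection, and the share of cells that carried it was not analysed here. The organism in the labels is mouse, but the list has chromosomes 20 to 22 and human scaffold names, and the defining genes of HEK293 cells were not checked because an annotation of GRCh38 was not used here.

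Accessible chromatin was listed near 9 of the 10 genes, and the exception was CXCL8. All 4 feedback genes had a peak over the gene start used here, while among the cytokine genes only CXCL1 and CCL2 had one. Whether the IL6 peak, just downstream of the start used, covers another start of IL6 was not examined. At the feedback genes the start peaks were tall and, in 3 of 4, over 1 kb wide, with 154 to 431 fragments stacked at the summit. At the cytokine genes, the peak nearest to the start had 44 to 98 fragments. A 20 kb tile of chromosomes 1 to 22 and X held at least 1 peak in 23.4% of cases and at least 2 peaks in 7.07%, and a 2 kb tile held 1 in 4.21%. Against this, 7 of the 10 windows held at least 2 peaks, 4 of 4 at the feedback genes and 2 of 5 at the cytokine genes, and 8 of 10 genes had a peak within 1 kb of the start. The tiles cover the whole genome, most of which is not near a gene start, so the gap to the tiles says nothing about these genes against other genes.

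**Figure D1:**
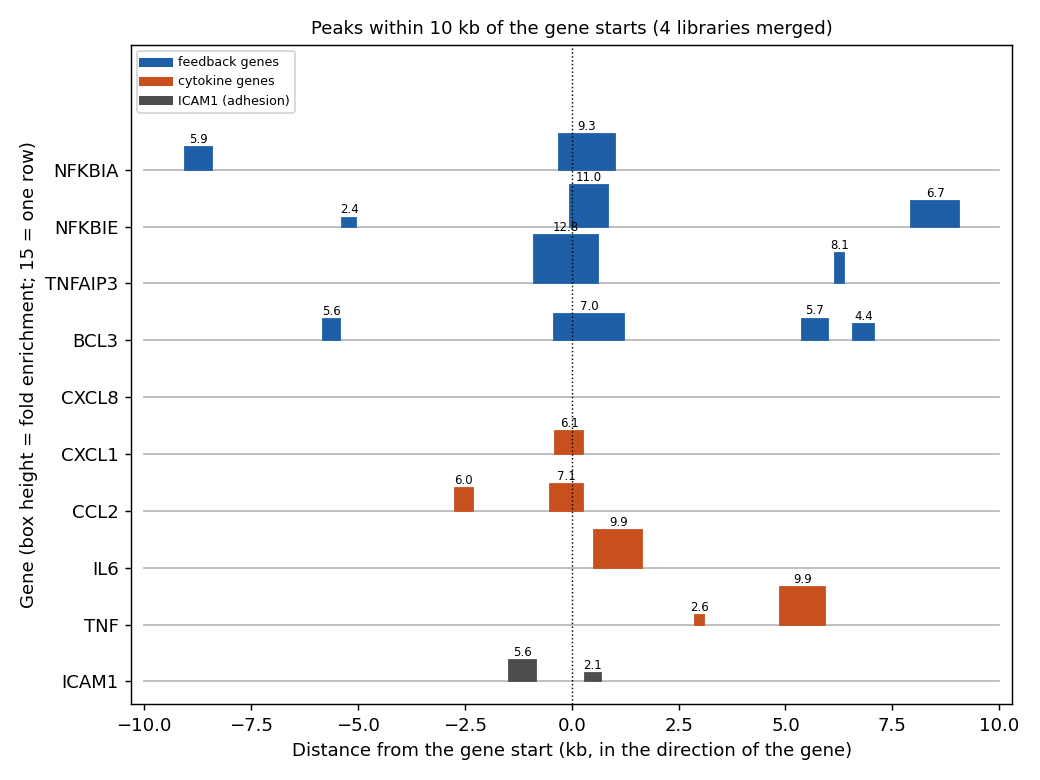
Peaks within 10 kb of each gene start, drawn in the direction of the gene, with distance from the start in kb on the horizontal axis and 1 row per gene. Box width is the peak's extent and box height its fold enrichment, printed above each box. The 4 feedback genes have a box over the start used, with folds of 6.95 to 12.8. CXCL8 has none, and the boxes of IL6 and TNF lie downstream of the start used.

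For every peak the list gives the fold enrichment at the summit, which is the number of stacked fragments plus 1 over the local background plus 1. From the fold and the p-value together, the height of the stack at the summit (called the summit pileup, in fragments) and the background around it could be worked out again. The intervals given below are 95% Poisson intervals of the pileup, carried over to the fold with the background held fixed. They cover counting error only, since neither the libraries nor the cultures can be told apart in the merged list. Over all peaks, the median was 5.60 for the fold, 590 bp for the width and 56 fragments for the pileup. In pooled cells, a small pileup from a few cells with an open site cannot be told apart from a site that is less open in every cell.

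The inhibitor genes come first among the feedback genes. NFKBIA encodes IκBα, the inhibitor that is degraded and made again within each round of signalling, and it is read on the reverse strand of chromosome 14 with its start at 35404749. Its start peak, chr14:35403744-35405046, was 1303 bp wide and had a fold enrichment of 9.33 (95% interval 8.24 to 10.5), with 264 fragments (233 to 298) at the summit. This peak reached from 297 bp upstream to 1005 bp downstream of the start, and its summit lay 701 bp downstream, within the transcribed side. The other NFKBIA peak lay 8407 to 9045 bp upstream and was lower, with a fold of 5.88 (4.27 to 7.89), 42 fragments and a width of 639 bp. Its near edge was the farthest from a start of all peaks inside the windows. The closest peak left out, 11272 bp upstream of ICAM1, had a fold of 4.77 (3.84 to 5.87) and 88 fragments.

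NFKBIE encodes IκBε, a second inhibitor of the same family, and is read on the reverse strand of chromosome 6 from 44265788. Its start peak, chr6:44264938-44265828, was 891 bp wide and had a fold of 11.0 (9.91 to 12.2), with 357 fragments (321 to 396). It ended 40 bp upstream of the start and covered the first 850 bp downstream, so nearly all of it lay on the transcribed side. NFKBIE also had a broad downstream peak, 7932 to 9067 bp from the start, with a fold of 6.67 (5.88 to 7.54) and 255 fragments. A weak peak 5035 to 5374 bp upstream had a fold of 2.39 (1.73 to 3.22) and a −log10 q-value of 4.80. The downstream peak had the highest local background of the 19, 37.4 fragments. Which gene it belongs to was not examined, because a window of 10 kb can hold the starts of neighbouring genes.

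TNFAIP3 encodes A20, a ubiquitin-editing enzyme that shuts the pathway off upstream of the inhibitors. Its start peak, chr6:137866329-137867836, had the highest values of the 19 peaks, with a fold of 12.8 (11.6 to 14.1) and 431 fragments (391 to 474). The peak was 1508 bp wide, from 885 bp upstream to 622 bp downstream of the start at 137867214, with its summit 53 bp upstream. In fold it exceeded 89.8% of all peaks of the list, and in width 93.7%. A second TNFAIP3 peak, 6148 to 6379 bp downstream, was only 232 bp wide. It had 58 fragments on a background of 6.32, the genome-wide level, and so reached a fold of 8.06 (6.16 to 10.4) that was above that of the BCL3 start peak with far fewer fragments.

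BCL3 encodes an atypical member of the inhibitor family that works in the nucleus with the p50 and p52 subunits of NFkB. Its window held 4 peaks, the most of the 10 genes, and 0.47% of the 20 kb tiles held as many. The start peak, chr19:44747302-44748928, was the widest of the 19 at 1627 bp, wider than 95.4% of all peaks. Its fold was nevertheless the lowest among the feedback start peaks, 6.95 (5.90 to 8.13), with 154 fragments (131 to 180). The summit lay 57 bp upstream of the start at 44747705, in the upstream part of the peak and 467 bp from its centre. The other BCL3 peaks had folds of 5.56 (upstream, 5424 to 5814 bp), 5.73 (downstream, 5388 to 5987 bp) and 4.40 (downstream, 6572 to 7076 bp), with 70, 119 and 79 fragments. In all, 15.6% of the BCL3 window lay in peaks, the largest share of the 10 genes.

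Of the chemokine genes, CXCL8 and CXCL1 lie in the same cluster on chromosome 4, with starts 128824 bp apart. CXCL8 encodes interleukin 8, which attracts neutrophils, and its window held 0 peaks. The gap without a peak around its start, at 73740569, ran for 215876 bp. The closest peak began 96078 bp downstream and was small, with a fold of 3.14 (2.02 to 4.69) and 22 fragments. A site is listed only once it passes the peak caller's threshold, and the smallest pileup listed anywhere at the genome-wide background was 16 fragments, a fold of 2.32. Accessibility at CXCL8 below about that level over the 4 libraries would not be seen in the list.

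CXCL1, another neutrophil-attracting chemokine, had a single peak, and it lay over the start at 73869393. The peak, chr4:73869004-73869663, was 660 bp wide with its summit 76 bp downstream of the start. It held 44 fragments (32.0 to 59.1) on the genome-wide background, a fold of 6.15 (4.51 to 8.21). This is above the median fold of all peaks but below their median pileup. The 2 peaks listed between the CXCL8 and CXCL1 starts both had a fold of 3.14, so that the CXCL1 start was the strongest site from one gene to the other.

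CCL2 encodes the monocyte attractant MCP-1. Its start peak, chr17:34254711-34255484, was 774 bp wide with its summit 22 bp upstream of the start at 34255218, the closest of the 19 summits to a start. It had a fold of 7.13 (5.52 to 9.07) and 64 fragments (49.3 to 81.7). A narrower peak of 414 bp lay upstream, 2315 to 2728 bp from the start, and had a fold of 6.03 (4.58 to 7.79) and 56 fragments. The intervals of the 2 CCL2 peaks overlap, in fold as in pileup.

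IL6 encodes interleukin 6, a cytokine of fever and the acute phase response. Its only peak, chr7:22726414-22727537, began 530 bp downstream of the start at 22725884 and did not cover it. The peak was 1124 bp wide, with a fold of 9.94 (8.09 to 12.1) and 98 fragments (79.6 to 119). It had the highest fold of the cytokine genes, but only just. A TNF peak described below had 9.93 (8.60 to 11.4), and the intervals overlap. The summit of the IL6 peak lay 1450 bp downstream of the start. The start used is that of the whole gene, and starts of single transcripts were not used, so whether the peak covers another start of IL6 was not examined. Upstream of the IL6 start the list was empty for 165417 bp.

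TNF encodes the cytokine that was added to the cells, and it lies in the major histocompatibility complex between the lymphotoxin genes LTA and LTB. No peak lay within 1 kb of its start at 31575567, and both of its peaks were downstream. The nearer one, 2879 to 3093 bp from the start, was 215 bp wide, the smallest width in the list. It had a fold of 2.57 (1.94 to 3.34) and 53 fragments. The farther one, chr6:31580445-31581494, was 1050 bp wide and 4878 to 5927 bp from the start, with a fold of 9.93 (8.60 to 11.4) and 197 fragments (170 to 227). Upstream of the TNF start the closest peak was 27900 bp away, so both TNF peaks lay on the side of LTB, and whether they belong to TNF or to a neighbour was not examined.

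ICAM1 encodes an adhesion molecule that leukocytes bind on endothelium. Its start, at 10270835 on chromosome 19, fell in a gap of 1146 bp between 2 peaks. The upstream peak, 830 to 1462 bp away, had a fold of 5.62 (4.45 to 6.99), 78 fragments and a width of 633 bp. The downstream peak, 317 to 678 bp away, was the weakest of the 19, with a fold of 2.14 (1.45 to 3.04), 29 fragments (19.4 to 41.6) and a −log10 q-value of 2.38. In fold it exceeded 1.14% of all peaks.

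For the comparison of feedback with cytokine genes, the peak nearest to the start stood for each gene. At the feedback genes this peak lay over the start, while it began 530 bp away at IL6 and 2879 bp away at TNF. The median fold was 10.2 over the 4 feedback genes (6.95 to 12.8) and 6.64 over the 4 cytokine genes with a peak (2.57 to 9.94). The groups overlap, since IL6 was above NFKBIA and BCL3, and CCL2 was above BCL3, in each case with overlapping counting intervals. Of these peaks, 2 of 4 feedback and 0 of 4 cytokine peaks had a fold of at least 10, which 21.8% of all peaks had. The shares of all peaks, in fold, pileup and width, cover the list whether or not a peak lies at a gene start. They therefore say nothing about these genes against the starts of other genes. No test was made, because genes are not replicates of a condition and the list gives each gene a single value.

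The summit pileup, whose comparison between the groups was added after the data were seen, separated them further than the fold did. It had a median of 310.5 fragments in the feedback genes and 58.5 in the cytokine genes, and the lowest feedback gene, BCL3 with 154, was above the highest cytokine gene, IL6 with 98. At least 100 fragments were found in 4 of 4 feedback and 0 of 4 cytokine peaks nearest to a start, and in 32.9% of all peaks. This cutoff, part of the comparison added after the data were seen, lies just above IL6, whose interval of 79.6 to 119 includes it. From the top, the order was TNFAIP3, NFKBIE, NFKBIA, BCL3, IL6, CCL2, TNF, CXCL1 and ICAM1, whose upstream peak, with 78, was not the nearest. In this order the counting intervals of TNFAIP3 and NFKBIE overlap, those of NFKBIE and NFKBIA, NFKBIA and BCL3, and BCL3 and IL6 do not, and from IL6 down each interval overlaps that of the next gene. The farther TNF peak, with 197 fragments, was above BCL3, and with the highest peak of each window in place of the nearest the groups therefore overlap in pileup too, with a cytokine median of 81.

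**Figure D2:**
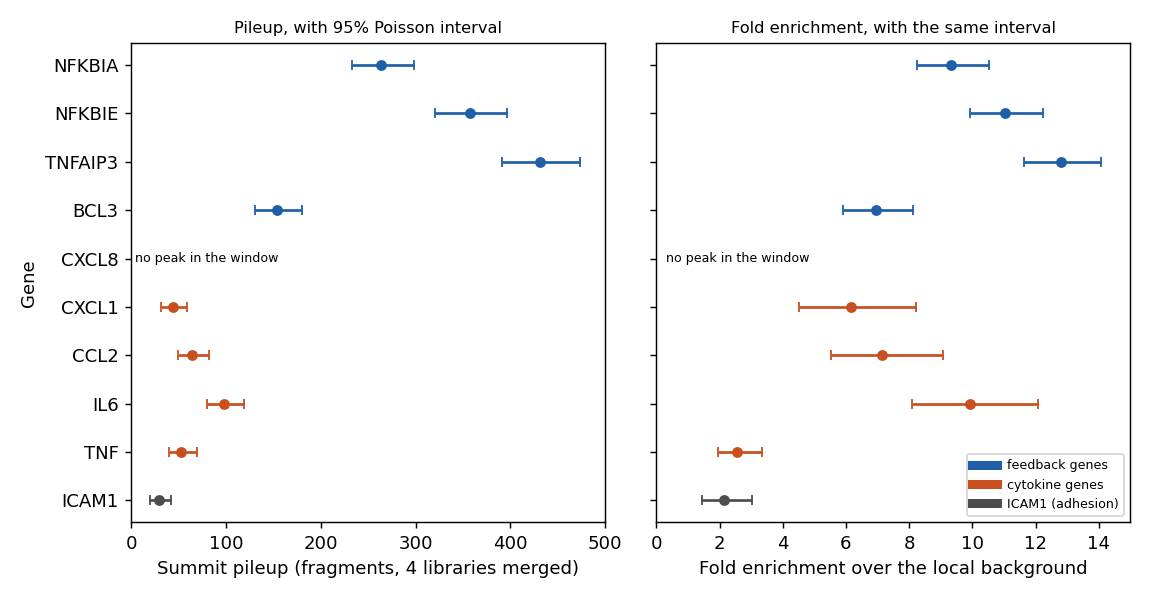
Summit pileup in fragments over the 4 merged libraries (left) and fold enrichment over the local background (right) of the peak nearest to each gene start, 1 row per gene. Points are the listed or recovered values and bars 95% Poisson intervals, which cover counting error only. In pileup the 4 feedback genes, from 154 to 431, lie above all cytokine genes, while in fold IL6, at 9.94, lies among them.

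The local background moved with the pileup. It was 27.4 fragments at the NFKBIA start peak, 31.5 at NFKBIE, 32.7 at TNFAIP3 and 21.3 at BCL3, from 3.37 to 5.18 times the genome-wide background of 6.32. At the cytokine genes it was lower, with 6.32 at CXCL1, 8.12 at CCL2 and 8.96 at IL6, except at the nearer TNF peak, where it was 20.0. The peak caller takes this background from the fragments around the summit, the peak's own included, and how far the peaks raised their own background was not tested. Set against the genome-wide background for all genes, the peaks nearest to the starts had a median fold of 42.6 in the feedback genes (21.2 to 59.0) and of 8.13 in the cytokine genes (6.15 to 13.5), so the gap between the groups depends on which background is used.

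In width, the nearest peaks had a median of 1405.5 bp in the feedback genes (891 to 1627) and of 717 bp in the cytokine genes (215 to 1124). At least 1000 bp were reached by 3 of 4 feedback peaks and 1 of 4 cytokine peaks, and by 22.9% of all peaks. The groups overlap here as well, as the IL6 peak was wider than that of NFKBIE. NFKBIE combined a high fold with a moderate width and BCL3 the reverse, so fold and width did not rank the feedback genes alike. Under 300 bp, as 14.4% of all peaks were, were 2 of the 19 peaks, the nearer TNF peak and the downstream TNFAIP3 peak.

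**Figure D3:**
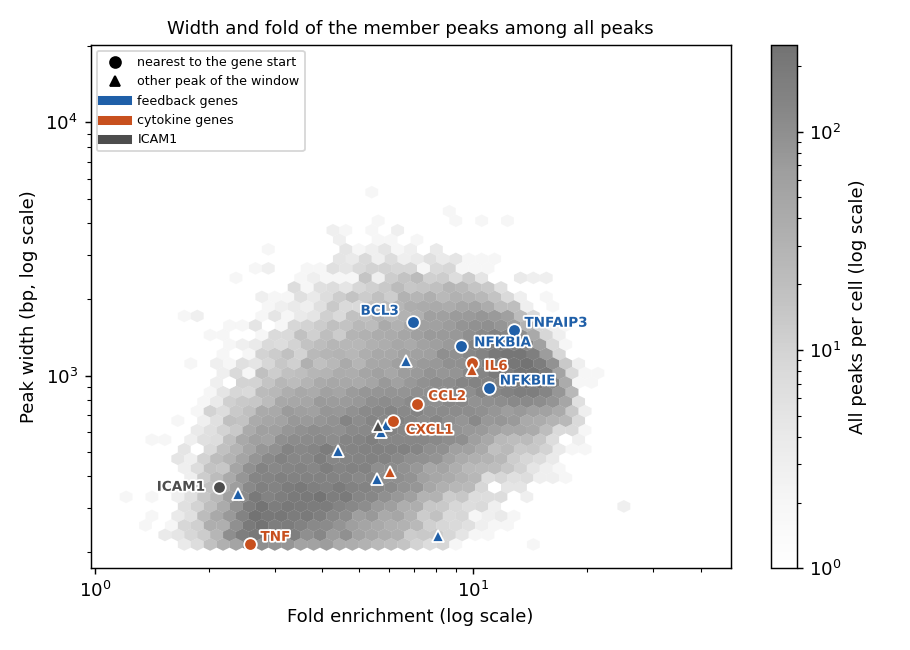
Width in bp against fold enrichment, both on log scales, for all 48751 peaks (grey, darker where more peaks fall) and for the 19 peaks near the genes (circles nearest to the start, triangles the others). TNFAIP3 lies at the upper right, with a fold of 12.8 and 1508 bp, and the nearer TNF peak at the lower edge, with a fold of 2.57 and 215 bp.

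Taking every peak of the windows removed most of the distance between the groups in fold, turned it around in width and left a smaller one in pileup. The median pileup was then 119 fragments at the feedback genes and 60 at the cytokine genes. The median fold was 6.67 over the 11 feedback peaks and 6.64 over the 6 cytokine peaks, and the median width 639 and 717 bp. Away from the starts, the peaks of the feedback genes had folds of 2.39 to 8.06, below the start peaks of NFKBIA, NFKBIE and TNFAIP3. Of the 19 peaks, 17 had a −log10 q-value of at least 5, which 86.5% of all peaks had, and 5 had one of at least 100, which 21.5% of all peaks had. Both counts were near those shares. The 5 with at least 100 were the start peaks of NFKBIA, NFKBIE and TNFAIP3, the downstream NFKBIE peak and the farther TNF peak. The share of the window in peaks was 8.70% to 15.6% at the feedback genes and 0% to 6.32% at the cytokine genes, where the 0 is CXCL8, and 4.97% at ICAM1. It was not worked out for other windows, so whether these shares are high or low cannot be said.

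The study resized peaks to 300 bp before counting fragments in them, and where the resized window was placed is not stated in the sources used here. Taking it around the centre of the peak as an assumption, in the deposited list the summit lay inside the central 300 bp in 14 of the 19 peaks, against 74.9% of all peaks. The count of 14 is near the share over all peaks. The 5 exceptions were all peaks nearest to a start, those of NFKBIA, NFKBIE, BCL3, IL6 and ICAM1. Their summits lay 347, 228, 467, 358.5 and 169.5 bp from the centre, in peaks 1303, 891, 1627, 1124 and 362 bp wide. Only a peak wider than 300 bp can be an exception, and whether the exceptions follow width was not tested. The gene start itself lay in the central 300 bp at TNFAIP3, CXCL1 and CCL2 only. The consensus peaks merged from single samples, on which that step was done, were not analysed here.

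The wider surroundings of the genes ranged from dense to almost empty. Within 100 kb either side, BCL3 and TNF each had 18 peaks, NFKBIE 16 and ICAM1 15, followed by TNFAIP3 with 8, CCL2 with 6, NFKBIA and CXCL1 with 5, IL6 with 3 and CXCL8 with 1. The average over chromosomes 1 to 22 and X was 3.19 peaks in a stretch of this length. CXCL8 was below this average and IL6 was near it. The average includes stretches far from any gene, so it says nothing about these genes against other genes. The strongest peak within 100 kb was the start peak itself at NFKBIA, TNFAIP3 and CXCL1. At BCL3 it lay outside the 10 kb window, 22797 bp downstream, with a fold of 17.3 (15.3 to 19.5) and 260 fragments, more than the start peak of BCL3 held.

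**Figure D4:**
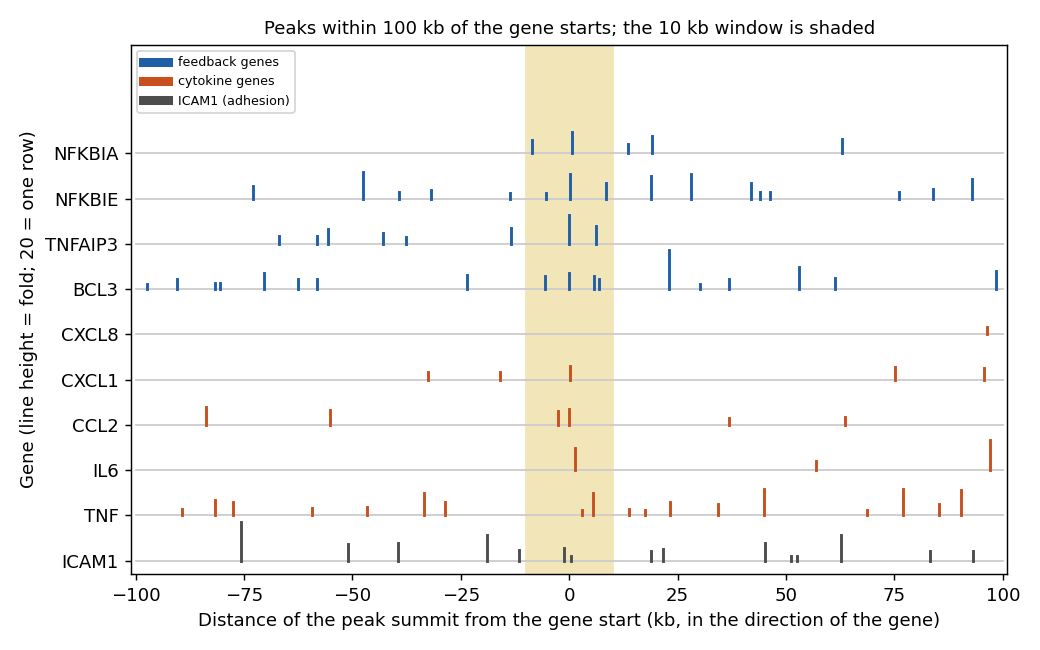
Peaks within 100 kb of each gene start, with the distance of the summit from the start in kb on the horizontal axis and 1 row per gene. Line height is the fold enrichment, and the shaded band marks the 10 kb window. BCL3 and TNF have 18 lines each, IL6 has 3 and CXCL8 has 1, at the far downstream edge.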

How the data were processed

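ATAC-seq peaks of HEK293 cells (2 NFkB TRAFTAC and 2 scrambled TRAFTAC libraries) were taken from the list the authors deposited. Per the methods and labels, reads were trimmed with Trimmomatic, aligned with Bowtie2 to GRCh38.p10, marked for duplicates with Picard and called with MACS2 in paired-end mode, with blacklisted regions removed. The list was called on the merged libraries. The authors deposited, for each peak, its position, summit, a score, the fold enrichment as a linear ratio, and the −log10 of the p-value and q-value.

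Peaks were assigned by overlap with the 10 kb either side of the gene starts, in 1-based coordinates. Pileup and background were recovered with a pseudocount of 1 and a Poisson distribution (misfit at most 0.001), for 48727 of the peaks and all 19 here, after the search had been tested on simulated data. The list does not show how deeply each library was sequenced, so depth is unknown. All 10 genes are named whatever their values. The genes and groups were chosen with earlier results of these data known. Alternatives were other windows, q-values, choices of peak and backgrounds. Promoter sequences, motifs and further pathway genes were not analysed, because the reference at hand was GRCm38. Python 3.11.15, numpy 2.4.6, pandas 2.3.3, scipy 1.17.1 and matplotlib 3.10.9 were used.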

Additional observations from a re-analysis of the deposited data

How the results depend on the processing

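The number of peaks near the genes, 19, was 12 with 5 kb and 30 with 20 kb either side, and 17 to 19 under the other alternatives. Genes with a peak at the start numbered 8, and 6 within 250 bp or at the start base. The median fold of the feedback genes, 10.2, was 6.67 over every peak and 42.6 on the genome-wide background, and that of the cytokine genes, 6.64, was 8.53 with the highest peak of each window and 8.13 on the genome-wide background. The median width of the feedback genes, 1405.5 bp, was 639 bp over every peak, and that of the cytokine genes, 717 bp, was 912 bp with the highest peaks. The median pileup of 310.5 in the feedback genes was 119 over every peak, and that of 58.5 in the cytokine genes was 60 over every peak and 81 with the highest peaks. With nearest peaks only within 1 kb, which leaves out TNF, the cytokine medians were 7.13 in fold, 774 bp in width and 64 fragments. The feedback medians did not change with that setting. Feedback medians were above cytokine medians except in width over every peak, and in fold over every peak they were nearly equal, at 6.67 and 6.64. The folds on the genome-wide background are the pileups on another scale, so they are not a separate alternative. With a pseudocount of 0 the pileup was recovered in 402 peaks in place of 48727. The genome-wide background, the 2 kb start distance, the peak only within 1 kb and the comparison of the groups in pileup, with all its alternatives, were chosen after seeing the data. No value without a given replicate could be had from pooled libraries. No paired analysis was possible because replicate numbers are not part of the list.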
